A study of Mus musculus with 48 samples.

Results

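The comparison described here is the effect of Cth loss in subcutaneous white fat (labelled SFAT) of male mice that had eaten a cystine-free diet (CysF) for 6 days. It was chosen by the labels alone: the 4 subcutaneous libraries labelled Cth-/- and CysF (replicates 16, 17, 18 and 20) were set against the 4 labelled Cth+/+ and CysF (replicates 7, 8, 10 and 11), over all genes. These are 8 of the 48 libraries of the series. Both groups thus shared the diet, the sex and the depot and differed in the Cth genotype. The whole series crossed 3 fat depots (SFAT, brown fat labelled BAT and visceral fat labelled EFAT) with both genotypes and 2 diets (CysF or the control diet, CTRL), with 4 libraries in each of 12 groups. Poly(A) RNA of ground, snap-frozen tissue was sequenced. The sources used here do not give the strain, the age or how the Cth allele was made. They do not state that each library comes from a separate mouse, so p-values measure only the spread between these samples, which may be technical. Values per library are given below in the order 16, 17, 18, 20 for Cth-/- and 7, 8, 10, 11 for Cth+/+.

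Cth encodes cystathionine gamma-lyase, which releases cysteine from cystathionine in the last step of the transsulfuration pathway from methionine. Mice that lack the enzyme depend on cysteine or its oxidised dimer cystine from food, and cysteine is a building block of glutathione, coenzyme A, taurine and iron-sulfur clusters. Subcutaneous white fat stores triglyceride, and it can gain beige adipocytes, which carry uncoupling protein UCP1 and release the energy of respiration as heat. Its stroma holds fibroblasts and adipocyte progenitors that lay down collagen, along with blood vessels, macrophages and lymphocytes.

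The 8 libraries held 22194370 to 31647691 expected counts (reads assigned to genes by RSEM). Levels are given as CPM, counts scaled to a common library size after TMM normalization. Differences are log2 fold changes of Cth-/- over Cth+/+ ± SE from edgeR's quasi-likelihood F-test on the 16 subcutaneous libraries. Called means a Benjamini-Hochberg adjusted p under 0.05 over all 16555 genes tested. Cth itself (GRCm38 chr3:157894248-157925077, minus strand) had 0, 2, 4 and 0 reads in Cth-/- libraries, against 126, 318, 90 and 297 reads in Cth+/+ libraries (log2 fold change -6.78 ± 0.53, adjusted p = 5e-07), so each library matched its label. Reads of mitochondrially encoded genes made up 10.6, 11.5, 10.6 and 31.3% of the counts in Cth-/- libraries, against 9.72, 7.43, 9.35 and 7.18% in Cth+/+ libraries, with replicate 20 apart from the rest. Reads of the pseudogene Gm43512 split the libraries into a set A (under 0.1 CPM; Cth-/- replicates 16, 17 and 18, Cth+/+ replicates 8 and 11) and a set B (Cth-/- replicate 20, Cth+/+ replicates 7 and 10); the labels name no batch. Within set B the comparison thus rests on Cth-/- replicate 20 alone. In each genotype here the set B libraries also had higher mitochondrially encoded shares than the set A libraries. The strandedness of the libraries is not stated. Genes with near-identical copies (Acot1, Cyp2b10, Gstm1, the Mup, H2 and immunoglobulin genes and the mitochondrially encoded genes) are uncertain to the extent that RSEM divided shared reads.

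Markers of adipocytes, of the depot and of other tissues were checked against the label. Adipoq, the adipocyte hormone adiponectin, stood at 1738 to 2278 CPM in Cth-/- and 1359.8 to 1595 CPM in Cth+/+. Tbx15, a transcription factor of subcutaneous fat, had 21.7, 30.6, 27.7 and 36.0 CPM in Cth-/-, against 34.6, 23.4, 29.9 and 22.7 CPM in Cth+/+ (log2 fold change 0.069 ± 0.16, adjusted p = 0.77). Zic1, a marker of classical brown fat, reached at most 0.204 CPM in the 8 libraries, and Wt1, a marker of visceral fat, was at or below 0.360 CPM except for 2.10 CPM in Cth-/- replicate 20. Markers of other tissues varied between libraries. The summed level of 20 skeletal muscle genes was 802, 172, 53.3 and 2069 CPM in Cth-/- libraries, against 265, 123, 89.4 and 71.4 CPM in Cth+/+ libraries, and that of 15 mammary and skin epithelial genes was 52.2, 3.09, 3.64 and 96.8 CPM, against 6.06, 6.07, 52.9 and 4.15 CPM. Replicates 16 and 20 thus held the most muscle transcript and, with Cth+/+ replicate 10, the most epithelial transcript. In bulk tissue, fewer cells of a type and less RNA per cell cannot be told apart.

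Cth-/- and Cth+/+ subcutaneous fat on the cystine-free diet differed at 6213 of 16555 genes tested (37.5%): 2997 (18.1%) were higher and 3216 (19.4%) were lower in Cth-/-. The counts of the gene lists below stand beside these shares. The genes that rose included those of thermogenic adipocytes, fatty acid oxidation, the respiratory chain and the citric acid cycle, and those that fell included collagens and other matrix genes, interferon response genes, macrophage markers, cell division genes and cholesterol synthesis genes. Changes of 2-fold or more numbered 881 upward and 1666 downward, and the median over all genes tested was 0.01 (quartiles -0.41 and 0.36). The 4 libraries of one genotype lay entirely above those of the other for 2544 genes higher in Cth-/- (15.4%) and for 2517 genes lower in Cth-/- (15.2%). Within set A 5537 genes were called and within set B 4697; with replicates 16 and 20 left out 4391 were called.

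**Figure D1:**
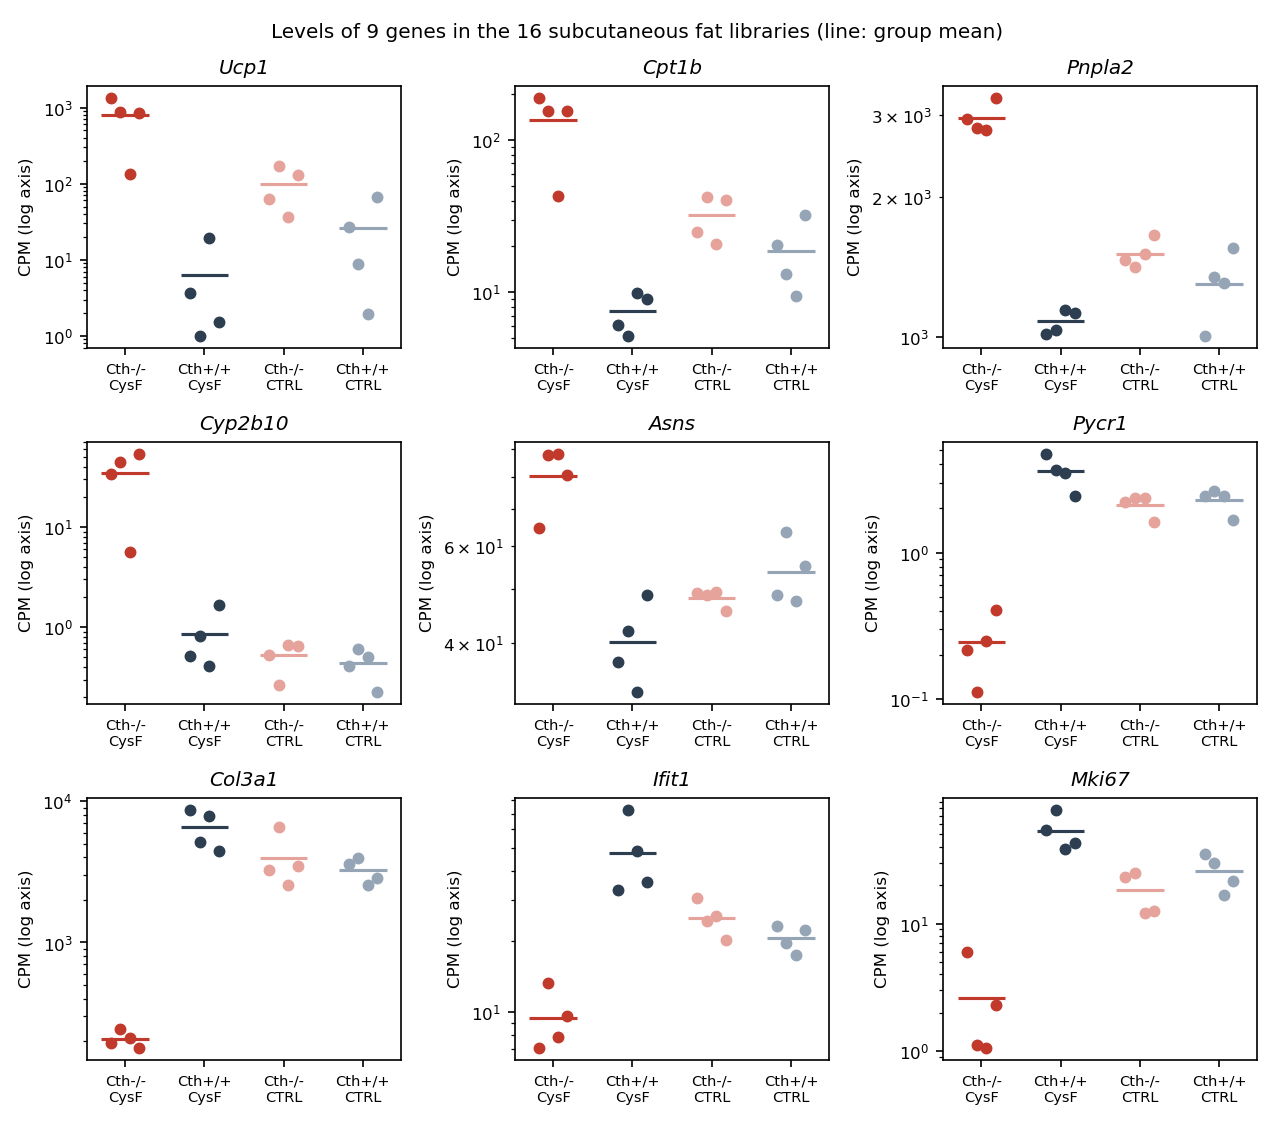
CPM (log axis) of 9 genes in the 16 subcutaneous libraries, 1 point a library, with a line at the mean of each group of 4, for Cth-/- CysF, Cth+/+ CysF, Cth-/- CTRL and Cth+/+ CTRL from left to right. Ucp1 reached 135 to 1337 CPM in Cth-/- CysF libraries, against 0.991 to 19.4 CPM in Cth+/+ CysF libraries, while Col3a1 stood at 179 to 244 CPM, against 4470.0 to 8689 CPM.

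Genes of thermogenic adipocytes rose. Of 28 tested genes of brown and beige adipocytes 23 rose and 0 fell, with a median log2 fold change of 2.05. Ucp1 (GRCm38 chr8:83290352-83298452, plus strand), whose protein lets protons leak across the inner mitochondrial membrane, had 1337, 878, 135 and 837 CPM in Cth-/-, against 3.64, 0.991, 19.4 and 1.52 CPM in Cth+/+ (log2 fold change 6.98 ± 1.23, adjusted p = 0.00044). Every Cth-/- library lay above every Cth+/+ library, with replicate 18 the lowest of the Cth-/- group and replicate 10 the highest of the Cth+/+ group. Cidea, a lipid droplet protein of brown adipocytes, had 219, 206, 99.2 and 246 CPM in Cth-/-, against 19.4, 11.6, 35.2 and 17.2 CPM in Cth+/+ (log2 fold change 3.21 ± 0.41, adjusted p = 3.7e-05). Elovl3, a fatty acid elongase of brown fat, had 46.5, 28.4, 9.03 and 74.1 CPM in Cth-/-, against 0.832, 1.35, 0.980 and 3.32 CPM in Cth+/+ (log2 fold change 4.58 ± 0.77, adjusted p = 0.0003). Dio2, the deiodinase that activates thyroid hormone, had 35.8, 38.0, 13.9 and 188 CPM in Cth-/-, against 4.20, 3.63, 4.58 and 3.84 CPM in Cth+/+ (log2 fold change 4.08 ± 0.68, adjusted p = 0.0003). For each of these genes the groups did not overlap, and replicate 18 was the lowest of the Cth-/- libraries.

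The transcriptional coactivator Ppargc1a (PGC-1alpha), a driver of mitochondrial biogenesis, had 47.0, 39.0, 25.4 and 61.3 CPM in Cth-/-, against 12.6, 9.91, 15.1 and 11.8 CPM in Cth+/+ (log2 fold change 1.80 ± 0.23, adjusted p = 3.5e-05). The fatty acid carriers Fabp3 and Slc27a2 were well above 1 CPM in every Cth-/- library, against under 1 CPM in every Cth+/+ library. Fabp3, of heart and muscle type, had 48.4, 25.5, 5.32 and 25.1 CPM in Cth-/-, against 0.594, 0.0901, 0.449 and 0.138 CPM in Cth+/+ (log2 fold change 6.41 ± 1.03, adjusted p = 0.00021). Slc27a2, a fatty acid transport protein and acyl-CoA synthetase, had 34.1, 24.2, 9.28 and 41.2 CPM in Cth-/-, against 0, 0.300, 0.654 and 0.138 CPM in Cth+/+ (log2 fold change 6.63 ± 0.80, adjusted p = 2e-05). The receptors and regulators among the list moved less evenly. Adrb1, the beta-1 adrenergic receptor, rose by 0.99 (adjusted p = 0.0015), and the nuclear receptors Ppara and Esrrg rose by 2.90 (adjusted p = 4.6e-07) and 2.78 (adjusted p = 0.00016). Another 3 genes that mark or specify beige and brown adipocytes did not pass the test: Adrb3, the beta-3 adrenergic receptor (-0.28 ± 0.25, adjusted p = 0.41), Prdm16 (-0.19 ± 0.15, adjusted p = 0.35) and Ebf2 (0.11 ± 0.15, adjusted p = 0.59). Adrb3 was called lower without Cth-/- replicate 16 (-0.61, adjusted p = 0.036), and its value within set B was -1.06. Prdm16 stood at 17.3 to 22.4 CPM in Cth-/- and 16.5 to 28.7 CPM in Cth+/+, and Ebf2 at 53.1 to 65.7 CPM in Cth-/- and 41.3 to 72.2 CPM in Cth+/+.

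Muscle also expresses several of these genes, and its markers were uneven across the Cth-/- libraries. In replicate 17 the muscle sum of 172 CPM lay within the Cth+/+ range of 71.4 to 265 CPM, and in replicate 18 its 53.3 CPM was the lowest of all 8 libraries; Ucp1 there was 878 and 135 CPM, above the 19.4 CPM of the highest Cth+/+ library. With replicates 16 and 20 left out, the log2 fold change of Ucp1 was 6.34, adjusted p = 0.0034 (range 1.5e-10 to 0.032 over 27 alternatives), and 20 thermogenic genes rose and 0 fell. The part of muscle in the rise of genes that it also expresses was not tested, and the Ucp1 values do not measure it. Of 19 tested muscle genes 2 were called, Neb, a giant filament protein of the sarcomere (log2 fold change 3.24 ± 1.04, adjusted p = 0.023), and Eno3, muscle enolase (log2 fold change 1.58 ± 0.42, adjusted p = 0.0085), beside a median of 2.62. Neb had 54.9, 11.6, 5.70 and 168 CPM in Cth-/-, against 12.7, 5.32, 4.62 and 2.70 CPM in Cth+/+, so the groups overlapped, and its call ended without replicate 20 (1.93, adjusted p = 0.13; range 0.0047 to 0.77 over 27 alternatives). The call of Eno3 ended with replicates 16 and 20 left out (0.93, adjusted p = 0.16; range 0.00071 to 0.16 over 27 alternatives). DESeq2 called 5 muscle genes. Myh4, the fast myosin heavy chain, had 159.7, 43.8, 1.09 and 490.1 CPM in Cth-/-, against 51.4, 9.52, 3.64 and 0.588 CPM in Cth+/+ and was not called (adjusted p = 0.14).

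**Figure D2:**
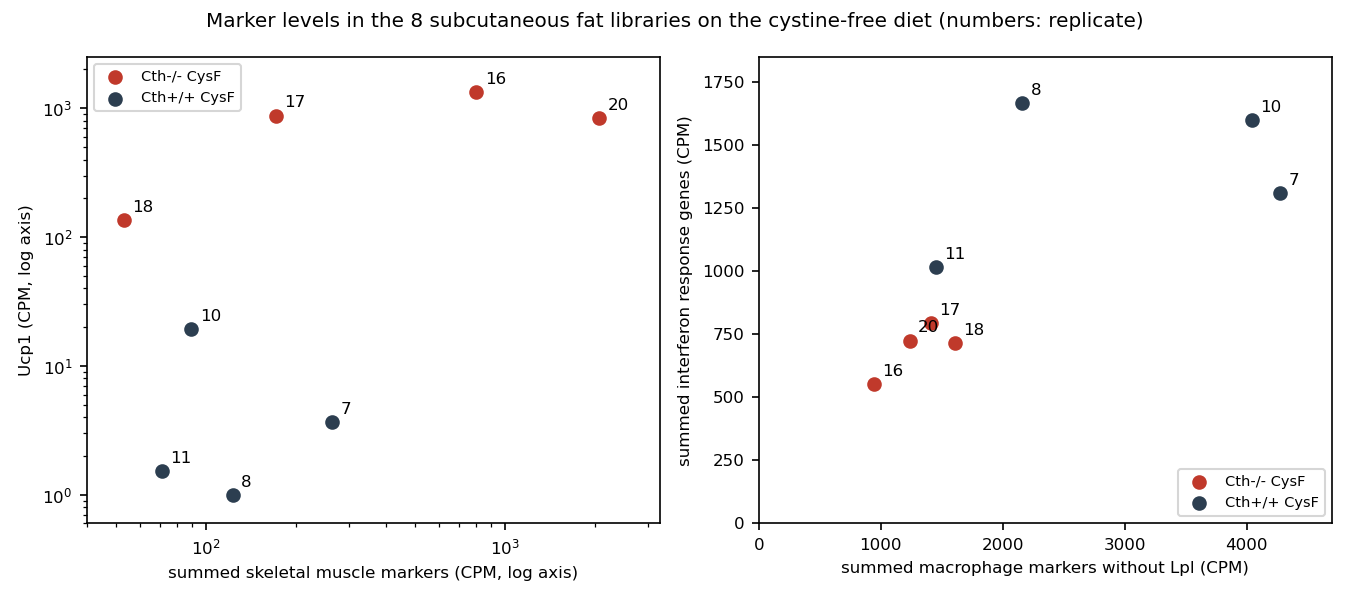
Each point is 1 of the 8 subcutaneous CysF libraries, numbered by replicate and coloured by genotype. Left: summed CPM of the skeletal muscle genes against Ucp1 CPM (both log axes), where Cth-/- replicates 17 and 18 lie above all Cth+/+ libraries in Ucp1 at muscle sums of 172 and 53.3 CPM; right: summed CPM of the macrophage markers without Lpl against that of the interferon response genes, where the Cth-/- libraries lie at the low end of both, next to Cth+/+ replicate 11.

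Fatty acid oxidation rose along almost the whole pathway. Of 34 genes 29 rose and 1 fell (median 1.15). Cpt1b, the isoform of carnitine palmitoyltransferase 1 of muscle and brown fat that admits fatty acids into mitochondria, had 188, 154, 42.7 and 156 CPM in Cth-/-, against 6.14, 5.17, 9.89 and 9.07 CPM in Cth+/+ (log2 fold change 4.16 ± 0.48, adjusted p = 1.3e-05). The exception was the other isoform, Cpt1a, which fell by 0.69 on the log2 scale (adjusted p = 0.0063); with replicates 16 and 20 left out its value was -0.55, adjusted p = 0.085. Slc27a1, a fatty acid transporter, had 869.9, 858, 791 and 664 CPM in Cth-/-, against 169, 148, 154 and 188 CPM in Cth+/+ (log2 fold change 2.27 ± 0.16, adjusted p = 2.1e-07). Acot1, which splits acyl-CoA in the cytosol, had 6.30, 8.53, 10.7 and 6.99 CPM in Cth-/-, against 0.673, 0.360, 0.776 and 0.623 CPM in Cth+/+ (log2 fold change 3.75 ± 0.41, adjusted p = 9.8e-06). Enzymes of the beta-oxidation cycle changed by smaller factors: Acadvl by 1.65, Acadl by 1.61, Hadha by 1.40, Hadhb by 1.62 and Acaa2 by 1.40, all called. The peroxisomal enzymes were mixed, with Ehhadh at 1.65 called, and Acaa1a (0.31 ± 0.22, adjusted p = 0.3) and Hsd17b4 (0.15 ± 0.15, adjusted p = 0.46) not.

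Lipolysis genes rose at the first steps. Pnpla2, adipose triglyceride lipase, had 2940.3, 2806, 2788 and 3261 CPM in Cth-/-, against 1016, 1034, 1145 and 1127 CPM in Cth+/+ (log2 fold change 1.45 ± 0.13, adjusted p = 1.8e-06). Lipe, hormone-sensitive lipase, had 1835, 1564, 1725 and 1238 CPM in Cth-/-, against 862, 1058, 944 and 1214 CPM in Cth+/+ (log2 fold change 0.64 ± 0.16, adjusted p = 0.0048). The call of Lipe ended within set B (0.41, adjusted p = 0.083; range 0.00012 to 0.083 over 27 alternatives). Mgll, monoglyceride lipase, had 516 to 985 CPM in Cth-/- and 648 to 1244 CPM in Cth+/+. Mgll was not called (-0.26 ± 0.22, adjusted p = 0.37), but was called lower within set A (-0.45, adjusted p = 0.04). Both upper lipases thus lay higher in every Cth-/- library, while the last did not separate the groups. Plin5, the droplet coat protein of oxidative tissues, had 46.8, 44.9, 33.5 and 28.8 CPM in Cth-/-, against 6.81, 7.15, 6.41 and 11.7 CPM in Cth+/+ (log2 fold change 2.26 ± 0.28, adjusted p = 2.7e-05). Plin1, the coat protein of white adipocytes, stood at 1396 to 1488 CPM in Cth-/- and 1226 to 1711 CPM in Cth+/+ (0.0050 ± 0.15, adjusted p = 0.98). Gk, glycerol kinase, which lets the cell reuse glycerol, had 94.3, 49.1, 21.3 and 43.2 CPM in Cth-/-, against 7.68, 12.0, 9.19 and 13.8 CPM in Cth+/+ (log2 fold change 2.28 ± 0.35, adjusted p = 0.00017). In all, 12 of 22 tested lipolysis and droplet genes rose and 0 fell, with a median of 0.65.

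The nuclear genes of the mitochondrial respiratory chain rose, with medians below that of the thermogenic genes. For complex I 29 of 37 subunits rose and 0 fell (median 0.76), and for complexes II to V with cytochrome c 37 of 44 rose and 1 fell (median 0.88). Cox7a1 and Cox8b, the heart and muscle isoforms of cytochrome oxidase subunits that brown fat also uses, rose most among the subunits called, and Cox8b had 124, 128, 65.1 and 107 CPM in Cth-/-, against 24.1, 18.0, 30.6 and 24.4 CPM in Cth+/+ (log2 fold change 2.13 ± 0.22, adjusted p = 5.6e-06). The member that fell was Atpif1, the inhibitor of the ATP synthase (-0.65, adjusted p = 0.034). Of 19 citric acid cycle genes 16 rose (median 1.00), with 10 called within set A. Citrate synthase, Cs, had 1070.3, 975, 603 and 791 CPM in Cth-/-, against 542, 649.8, 496 and 882 CPM in Cth+/+. The groups overlapped, and Cs was not called (0.42 ± 0.21, adjusted p = 0.13), but passed without Cth+/+ replicate 11 or Cth-/- replicate 18 (range 0.026 to 0.51 over 27 alternatives).

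Among 13 genes of coenzyme A synthesis and transport 10 rose and 0 fell (median 0.50), with 6 called within set B. Pank1, pantothenate kinase, the first enzyme of the pathway, had 80.0, 63.8, 18.9 and 87.2 CPM in Cth-/-, against 9.23, 7.75, 9.11 and 10.3 CPM in Cth+/+ (log2 fold change 2.78 ± 0.36, adjusted p = 3.6e-05). Slc5a6, the carrier that takes up pantothenate and biotin, had 78.4, 85.6, 80.2 and 59.1 CPM in Cth-/-, against 16.2, 16.0, 18.0 and 20.2 CPM in Cth+/+ (log2 fold change 2.11 ± 0.14, adjusted p = 1.4e-07). Pank3, another pantothenate kinase, stood at 1200.1 to 1907 CPM in Cth-/- and 782 to 1808 CPM in Cth+/+. Pank3 was not called (0.34 ± 0.26, adjusted p = 0.32). Iron-sulfur cluster assembly rose at 7 of 18 genes and fell at 0 (median 0.42). The chaperone Hspa9 had 859.6, 852, 595 and 910.3 CPM in Cth-/-, against 372, 384, 353 and 510.5 CPM in Cth+/+ (log2 fold change 0.99 ± 0.16, adjusted p = 0.00021). Glrx5, which passes on new clusters, had 62.8, 64.9, 64.3 and 44.6 CPM in Cth-/-, against 23.7, 33.9, 23.3 and 41.0 CPM in Cth+/+ (log2 fold change 0.96 ± 0.17, adjusted p = 0.00061). Nfs1, the cysteine desulfurase that takes the sulfur for the cluster from cysteine, had 53.6, 47.9, 40.7 and 29.5 CPM in Cth-/-, against 26.3, 36.8, 28.3 and 43.3 CPM in Cth+/+. Nfs1 was not called (0.35 ± 0.18, adjusted p = 0.14), but passed without Cth+/+ replicate 11 or Cth-/- replicate 20 (range 0.025 to 0.73 over 27 alternatives).

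The mitochondrially encoded genes lay higher too, but their calls depended on the libraries. Their summed level was 107347, 117230, 101133 and 470856 CPM in Cth-/- libraries, against 92303, 70597, 88510 and 73711 CPM in Cth+/+ libraries. Of 13 genes 7 were called higher and 0 lower (median 1.37). mt-Nd5, a complex I subunit, had 11389, 12717, 11266 and 66214 CPM in Cth-/-, against 9206, 6612, 7469 and 6662 CPM in Cth+/+ (log2 fold change 1.76 ± 0.55, adjusted p = 0.02). Replicate 20 stood far above the other Cth-/- libraries, and without it the value was 0.66, adjusted p = 0.17 (range 0.0062 to 0.24 over 27 alternatives). Without replicate 20 or without Cth+/+ replicate 8 the list had 2 genes called, without Cth-/- replicate 18 it had 13, and with replicates 16 and 20 left out it had 0. mt-Nd3, with 489, 386, 305 and 533 CPM in Cth-/-, against 80.1, 173, 109.7 and 270.4 CPM in Cth+/+ (log2 fold change 1.44 ± 0.36, adjusted p = 0.0061), was higher in every Cth-/- library, but its call too ended with replicates 16 and 20 left out (1.14, adjusted p = 0.071; range 0.00032 to 0.071 over 27 alternatives).

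Fatty acid synthesis genes had no common direction: 2 of 20 genes rose and 4 fell (median -0.23). The share that fell was near the 19.4% lower over all genes tested. The central enzymes were not called. Fasn, fatty acid synthase, had 31481, 26499.9, 9096 and 17125 CPM in Cth-/-, against 15114, 16928, 12450.5 and 27818 CPM in Cth+/+ (log2 fold change 0.22 ± 0.36, adjusted p = 0.67). Acaca, acetyl-CoA carboxylase 1, had 7153, 5684, 2336 and 4429.8 CPM in Cth-/-, against 3543, 3774, 3314 and 6099.9 CPM in Cth+/+ (log2 fold change 0.23 ± 0.33, adjusted p = 0.62); the groups overlapped for both. Acacb, the mitochondrial acetyl-CoA carboxylase whose product malonyl-CoA restrains Cpt1, had 1254, 1237, 800.4 and 1194 CPM in Cth-/-, against 296, 237, 347 and 467 CPM in Cth+/+ (log2 fold change 1.74 ± 0.24, adjusted p = 7.8e-05). Scd2, a stearoyl-CoA desaturase, had 282, 218, 117 and 183 CPM in Cth-/-, against 1207, 2178, 725 and 3387 CPM in Cth+/+ (log2 fold change -3.23 ± 0.46, adjusted p = 8.2e-05), lower in every Cth-/- library and highest in Cth+/+ replicates 8 and 11. Scd1, the main desaturase of fat, had 33461, 21372, 13494 and 40509 CPM in Cth-/-, against 32404, 50429, 36867 and 61759.7 CPM in Cth+/+. Scd1 was not called (-0.74 ± 0.33, adjusted p = 0.092), but was called when replicate 20 was left out (-0.98, adjusted p = 0.029; range 0.01 to 0.66 over 27 alternatives). Acss2, which activates acetate in the cytosol, fell by 1.88 on the log2 scale (adjusted p = 0.0084), with 82.2 to 375 CPM in Cth-/- and 337 to 1428 CPM in Cth+/+.

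In triglyceride assembly 7 of 15 genes rose and 3 fell; with replicates 16 and 20 left out 4 rose and 2 fell, and within set A 4 rose and 5 fell. Gpam, the first acyltransferase of glycerolipid synthesis, had 327, 442, 215 and 350.4 CPM in Cth-/-, against 117, 159, 110.1 and 210.3 CPM in Cth+/+ (log2 fold change 1.16 ± 0.22, adjusted p = 0.00082). Pck1, phosphoenolpyruvate carboxykinase, which supplies glycerol phosphate in fat, had 3903, 1619, 5066 and 2813 CPM in Cth-/-, against 721, 749, 1308 and 585 CPM in Cth+/+ (log2 fold change 2.00 ± 0.38, adjusted p = 0.00077). Both were higher in every Cth-/- library. The acyltransferase Mogat2 had the largest fall among the 15, with 0.733, 0.372, 0.156 and 0.271 CPM in Cth-/-, against 2.61, 12.3, 1.96 and 19.0 CPM in Cth+/+ (log2 fold change -4.55 ± 0.81, adjusted p = 0.00047). Dgat2, which makes triglyceride, had 1268, 1401, 700.3 and 688 CPM in Cth-/-, against 1514, 2355, 995 and 3302 CPM in Cth+/+ (log2 fold change -1.01 ± 0.36, adjusted p = 0.038); the groups overlapped and the call ended in 7 of 27 alternatives, among them without Cth+/+ replicate 8, Cth+/+ replicate 11, Cth-/- replicate 18 or Cth-/- replicate 20 (range 0.0081 to 0.15 over 27 alternatives).

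Cholesterol synthesis fell: 0 of 24 genes rose and 19 fell, with a median of -1.09. Sqle, squalene epoxidase, had 12.4, 9.27, 5.98 and 10.9 CPM in Cth-/-, against 30.6, 49.0, 16.1 and 76.8 CPM in Cth+/+ (log2 fold change -2.17 ± 0.41, adjusted p = 0.00075). The Cth+/+ group itself was split, with replicates 8 and 11 of set A above replicates 7 and 10 of set B in Sqle. Within set A 22 genes fell and 0 rose, and within set B 5 fell and 1 rose; Sqle within set B had -1.15, adjusted p = 0.063 (range 2.1e-07 to 0.063 over 27 alternatives). Without Cth+/+ replicate 11 the number that fell was 9, and with replicates 16 and 20 left out it was 8. The part of the library set in this result was not tested.

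Adipocyte hormones went both ways. Lep, leptin, had 112, 182, 255 and 29.4 CPM in Cth-/-, against 377, 1040.5, 305 and 1398 CPM in Cth+/+ (log2 fold change -2.43 ± 0.59, adjusted p = 0.0046), lower in every Cth-/- library. Cfd, adipsin, had 8598, 8614, 9602 and 7446 CPM in Cth-/-, against 3130.0, 1608, 3323 and 1906 CPM in Cth+/+ (log2 fold change 1.78 ± 0.24, adjusted p = 5.2e-05), higher in every Cth-/- library. Rbp4, retinol-binding protein, had 75.3, 47.5, 67.3 and 30.0 CPM in Cth-/-, against 140.3, 261, 115 and 351 CPM in Cth+/+ (log2 fold change -1.98 ± 0.34, adjusted p = 0.00041). Adiponectin differed by 0.38 ± 0.12, adjusted p = 0.021, with the call lost in 6 of 27 alternatives, among them within either set and without Cth+/+ replicate 7 or Cth-/- replicate 18 (range 0.00064 to 0.38 over 27 alternatives), and resistin (Retn) was not called (0.19 ± 0.28, adjusted p = 0.63). Apln, the vasoactive peptide apelin, had 1.64, 4.06, 1.71 and 3.12 CPM in Cth-/-, against 6.22, 45.5, 5.52 and 33.7 CPM in Cth+/+ (log2 fold change -3.12 ± 0.64, adjusted p = 0.0014), with its 2 highest values in Cth+/+ replicates 8 and 11 and no call within set B (-0.95, adjusted p = 0.17; range 7.3e-06 to 0.17 over 27 alternatives). Over the 22 genes of adipocyte identity and adipokines 8 rose and 3 fell (median 0.23). Fabp4, the fatty acid binding protein of adipocytes, was among the rises at 0.51 (adjusted p = 0.016), with the call lost in 5 of 27 alternatives, among them within set A, within set B and without Cth+/+ replicate 7 (range 0.00012 to 0.13 over 27 alternatives).

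Genes of sulfur amino acid metabolism changed in part. Of 23 tested genes 10 rose and 3 fell, Cth among the falls (median 0.37); within set B 4 rose and 2 fell. Cbs, cystathionine beta-synthase, the enzyme just before Cth in transsulfuration, had 10.3, 8.04, 14.1 and 5.09 CPM in Cth-/-, against 2.61, 3.12, 2.70 and 2.46 CPM in Cth+/+ (log2 fold change 1.79 ± 0.26, adjusted p = 8.7e-05). Within set B Cbs had 0.89, adjusted p = 0.086 (range 2.9e-10 to 0.086 over 27 alternatives). Fmo1, a flavin monooxygenase that can form taurine from hypotaurine, had 539, 711, 547 and 1085 CPM in Cth-/-, against 221, 179.6, 253 and 184 CPM in Cth+/+ (log2 fold change 1.78 ± 0.21, adjusted p = 1.7e-05). Both were higher in every Cth-/- library. Cdo1, cysteine dioxygenase, the first step of cysteine breakdown, had 1669, 1566, 1103 and 1310.5 CPM in Cth-/-, against 1079, 1304, 827 and 1705 CPM in Cth+/+. Cdo1 was not called (0.20 ± 0.25, adjusted p = 0.57). Sulfide-handling enzymes rose: Tst by 1.06 (adjusted p = 0.00027), Suox, sulfite oxidase, by 0.93 (adjusted p = 0.00037) and Sqrdl, sulfide quinone oxidoreductase, by 0.80 (adjusted p = 0.00011).

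Glutathione genes went both ways. Gclc, the catalytic subunit of the first and limiting enzyme of synthesis, had 41.5, 40.4, 45.5 and 54.1 CPM in Cth-/-, against 24.6, 25.6, 26.4 and 25.6 CPM in Cth+/+ (log2 fold change 0.83 ± 0.11, adjusted p = 4.4e-05). Gss, glutathione synthetase, had 14.6, 15.4, 13.4 and 12.5 CPM in Cth-/-, against 5.82, 8.65, 6.70 and 6.33 CPM in Cth+/+ (log2 fold change 1.02 ± 0.17, adjusted p = 0.0003). Gclm, the modifier subunit, had 50.5, 46.5, 44.5 and 54.7 CPM in Cth-/-, against 36.8, 43.9, 35.4 and 55.9 CPM in Cth+/+. Gclm was not called (0.19 ± 0.17, adjusted p = 0.41). The intracellular breakdown side rose too: Chac1, which cleaves glutathione in the cytosol, had 5.26, 4.36, 5.42 and 6.72 CPM in Cth-/-, against 1.66, 1.77, 1.06 and 2.46 CPM in Cth+/+ (log2 fold change 1.63 ± 0.28, adjusted p = 0.00034). Oplah, which returns the resulting oxoproline to glutamate, had 139, 133, 119.9 and 78.0 CPM in Cth-/-, against 33.8, 33.1, 37.0 and 31.3 CPM in Cth+/+ (log2 fold change 1.80 ± 0.19, adjusted p = 5.9e-06). All 4 genes called here were higher in every Cth-/- library. The falls were the peptidases Dpep2 (-1.61, not called within set A or without Cth+/+ replicate 10, Cth-/- replicate 16 or Cth-/- replicate 20, range 0.0031 to 0.27 over 27 alternatives) and Cndp2 (-0.59) and Ggt5 (-0.49), which act on glutathione or its fragments. Over the list 5 of 15 tested genes rose and 3 fell (median -0.039), and with replicates 16 and 20 left out 5 rose and 0 fell. The share that fell was near the 19.4% lower over all genes tested.

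Targets of NRF2, the transcription factor of the oxidative stress response, showed no common direction, with 3 of 22 called higher and 2 lower (median -0.052). Nqo1, the quinone reductase often used to read its activity, had 4.40, 3.05, 4.98 and 2.24 CPM in Cth-/-, against 3.25, 4.48, 3.96 and 4.15 CPM in Cth+/+. Nqo1 was not called (-0.10 ± 0.20, adjusted p = 0.73). Hmox1, heme oxygenase 1, which macrophages also express, had 20.9, 31.2, 33.7 and 30.3 CPM in Cth-/-, against 68.8, 41.6, 78.5 and 33.6 CPM in Cth+/+ (log2 fold change -0.94 ± 0.24, adjusted p = 0.007); within set A it had -0.37, adjusted p = 0.25, and with replicates 16 and 20 left out -0.77, adjusted p = 0.082 (range 0.00091 to 0.25 over 27 alternatives). Osgin1 had 2.07, 2.49, 3.52 and 1.97 CPM in Cth-/-, against 7.33, 9.19, 6.62 and 10.5 CPM in Cth+/+ (log2 fold change -1.73 ± 0.19, adjusted p = 8e-06), lower in every Cth-/- library. Slc7a11, the cystine importer xCT, had 0.302, 0.335, 0.311 and 1.36 CPM in Cth-/-, against 2.18, 1.71, 0.980 and 0.796 CPM in Cth+/+. Slc7a11 was not called (-1.39 ± 0.56, adjusted p = 0.062), but passed in 8 of 27 alternatives, among them without Cth-/- replicate 20 (-2.14, adjusted p = 0.0057; range 0.0025 to 0.81 over 27 alternatives).

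Targets of ATF4, which cells make when an amino acid runs short, went both ways: 9 of 39 rose and 8 fell, Cth itself among the falls (median -0.010). These counts lie near the shares over all genes tested, 18.1% higher and 19.4% lower. The promoter windows of 3 called members that hold the composite C/EBP-ATF letters TGATGNAA are shown because these members moved in opposite directions; capitals mark the match, the windows are the 250 bases before the annotated start from RefSeq (GRCm38.p6), written 5′ to 3′ on the strand of the gene: Asns (chr6:7693210-7693459, minus strand, 15 bases between the match and the start), Chac1 (chr2:119350992-119351241, plus strand, 185 bases) and Pycr1 (chr11:120643749-120643998, minus strand, 95 bases).
Asns: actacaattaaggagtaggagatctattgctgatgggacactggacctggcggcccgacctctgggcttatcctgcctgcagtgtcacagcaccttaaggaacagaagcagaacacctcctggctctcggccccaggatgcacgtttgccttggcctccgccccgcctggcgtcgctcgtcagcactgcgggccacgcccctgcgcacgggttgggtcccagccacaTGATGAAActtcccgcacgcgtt
Chac1: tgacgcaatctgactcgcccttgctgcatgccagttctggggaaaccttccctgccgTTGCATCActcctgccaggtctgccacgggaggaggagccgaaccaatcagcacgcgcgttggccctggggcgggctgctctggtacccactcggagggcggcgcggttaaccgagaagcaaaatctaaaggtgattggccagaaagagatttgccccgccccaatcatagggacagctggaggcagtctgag
Pycr1: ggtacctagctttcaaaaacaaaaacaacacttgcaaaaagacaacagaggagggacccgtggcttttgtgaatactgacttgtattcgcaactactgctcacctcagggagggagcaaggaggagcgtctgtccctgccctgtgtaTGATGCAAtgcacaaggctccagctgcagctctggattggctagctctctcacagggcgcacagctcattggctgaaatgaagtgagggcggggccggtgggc
The letters, searched on both strands, were found in a window of 1056 of all 27025 genes with one (3.91%) and in 9 of the 33 list genes with a window (27.3%). Of these 9, 3 rose (Asns, Chac1 and Vldlr), 3 fell (Atf3, Nupr1 and Pycr1) and 3 were not called; of the 24 without the letters 4 rose and 4 fell. A match is a description of the letters, not of binding.

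Asns, asparagine synthetase, had 64.6, 87.6, 88.1 and 80.5 CPM in Cth-/-, against 36.9, 42.1, 32.6 and 48.8 CPM in Cth+/+ (log2 fold change 1.00 ± 0.13, adjusted p = 4.4e-05). Chac1 has been given above. Trib3, a pseudokinase that feeds back on ATF4, had 9.06, 7.19, 6.41 and 3.59 CPM in Cth-/-, against 2.38, 4.45, 1.14 and 4.05 CPM in Cth+/+ (log2 fold change 1.12 ± 0.36, adjusted p = 0.023), where the groups overlapped and the call ended in 5 of 27 alternatives, among them without Cth+/+ replicate 7, Cth-/- replicate 16 or Cth-/- replicate 17 (range 0.0053 to 0.14 over 27 alternatives). Pycr1, the last enzyme of mitochondrial proline synthesis, had 0.216, 0.112, 0.249 and 0.407 CPM in Cth-/-, against 4.71, 3.66, 3.51 and 2.42 CPM in Cth+/+ (log2 fold change -3.91 ± 0.33, adjusted p = 8.5e-07), lower in every Cth-/- library. Aldh18a1, the enzyme before it, fell as well (-1.35 ± 0.16, adjusted p = 1.4e-05). The factors themselves were not called: Atf4 had 82.8, 99.5, 89.7 and 88.4 CPM in Cth-/-, against 83.6, 79.6, 83.5 and 101 CPM in Cth+/+ (log2 fold change 0.050 ± 0.11, adjusted p = 0.75). Ddit3, which encodes CHOP, had 12.4, 13.4, 8.41 and 9.90 CPM in Cth-/-, against 14.6, 10.9, 13.7 and 13.9 CPM in Cth+/+ (log2 fold change -0.27 ± 0.18, adjusted p = 0.26). Serine synthesis genes were not called, with Phgdh at -0.065 ± 0.27, adjusted p = 0.88 and Psat1 at -0.010 ± 0.18, adjusted p = 0.97. Fgf21, a stress hormone, was at or below 0.450 CPM in all 8 libraries.

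Among 22 tested amino acid transporters 6 rose and 9 fell (median -0.47). Slc1a3, a glutamate and aspartate carrier, had 451, 556, 563 and 695 CPM in Cth-/-, against 144, 98.7, 206 and 89.8 CPM in Cth+/+ (log2 fold change 2.07 ± 0.24, adjusted p = 1.3e-05). Slc43a1, an exporter of large neutral amino acids, had 72.9, 75.6, 77.6 and 110.5 CPM in Cth-/-, against 32.4, 18.5, 32.8 and 21.9 CPM in Cth+/+ (log2 fold change 1.67 ± 0.23, adjusted p = 7.3e-05). Slc1a4, a carrier of alanine, serine, cysteine and threonine, had 1.94, 2.05, 2.80 and 1.29 CPM in Cth-/-, against 5.90, 6.31, 4.37 and 5.92 CPM in Cth+/+ (log2 fold change -1.46 ± 0.21, adjusted p = 0.00011). The groups were apart for each of these. Slc7a5, the large amino acid carrier LAT1, was not called (-0.52 ± 0.25, adjusted p = 0.11), but was called lower within set A (-0.76, adjusted p = 0.023) and without Cth+/+ replicate 7 (-0.73, adjusted p = 0.019). Cytosolic aminoacyl-tRNA synthetases were mostly not called, with 1 of 20 called higher and 3 lower (median -0.11); the 4 calls, Mars, Cars, Rars and Tars, were each lost in 6 to 9 of 27 alternatives. Of 22 genes of the unfolded protein response and the endoplasmic reticulum 2 rose and 8 fell (median -0.13). Xbp1, a transcription factor of that response, had 226, 234, 259.5 and 222 CPM in Cth-/-, against 153, 137, 158 and 156 CPM in Cth+/+ (log2 fold change 0.64 ± 0.09, adjusted p = 7.6e-05). Hspa5, the chaperone BiP, had 274, 347, 295 and 275 CPM in Cth-/-, against 429.6, 403, 459.9 and 489 CPM in Cth+/+ (log2 fold change -0.58 ± 0.12, adjusted p = 0.0018).

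Collagen genes fell. Of 26 collagen genes 0 rose and 22 fell, with a median of -2.16, and leaving out any of the 16 subcutaneous libraries left 22 called. Col3a1 (GRCm38 chr1:45311538-45349706, plus strand), the fibrillar collagen of soft tissue, had 195, 244, 211 and 179 CPM in Cth-/-, against 8689, 5155, 7810.1 and 4470.0 CPM in Cth+/+ (log2 fold change -4.98 ± 0.33, adjusted p = 1.3e-07). Col1a1 had 79.0, 100.2, 87.7 and 132 CPM in Cth-/-, against 3868, 1579.8, 3538 and 1294 CPM in Cth+/+ (log2 fold change -4.69 ± 0.47, adjusted p = 4.3e-06). Its partner chain Col1a2 had 173, 199, 219 and 177 CPM in Cth-/-, against 3908, 1799, 3527 and 1499.7 CPM in Cth+/+ (log2 fold change -3.80 ± 0.40, adjusted p = 6.5e-06). The Cth-/- values lay within a narrow band far below every Cth+/+ library, and Cth+/+ replicates 7 and 10 exceeded replicates 8 and 11. Within set A Col1a1 differed by -4.00, adjusted p = 9.2e-05 and within set B by -4.85, adjusted p = 0.00083 (range 2.8e-30 to 0.00083 over 27 alternatives). Collagens of the basement membrane changed less, with Col4a1 at -1.13 and Col4a2 at -1.17, both called. Col11a1, Col27a1, Col4a6 and Col8a2 were not called, at 0.026, -0.11, -0.44 and -0.55. With replicates 16 and 20 left out Col4a6 was called lower (-1.74, adjusted p = 0.041).

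The machinery that folds, trims and crosslinks collagen fell with it, at 20 of 24 genes and 0 higher (median -1.09). Serpinh1, the collagen chaperone HSP47, had 141, 149, 103 and 94.6 CPM in Cth-/-, against 670.3, 819, 618 and 1019 CPM in Cth+/+ (log2 fold change -2.68 ± 0.19, adjusted p = 1.8e-07). Pcolce, which speeds procollagen trimming, had 21.2, 23.8, 21.6 and 16.2 CPM in Cth-/-, against 196, 105, 175 and 94.3 CPM in Cth+/+ (log2 fold change -2.78 ± 0.28, adjusted p = 3.8e-06). The crosslinking oxidase Loxl2 had 25.6, 30.0, 34.7 and 27.1 CPM in Cth-/-, against 268, 149, 239 and 115 CPM in Cth+/+ (log2 fold change -2.71 ± 0.27, adjusted p = 3.5e-06). In each case the groups did not overlap. Tgm2, a transglutaminase, was not called (0.20 ± 0.10, adjusted p = 0.15), but passed without Cth+/+ replicate 11 (0.29, adjusted p = 0.027). Among matrix glycoproteins and proteoglycans 29 of 33 fell and 0 rose (median -1.35). Fbn1, fibrillin 1, had 95.2, 85.5, 107 and 79.0 CPM in Cth-/-, against 969, 676, 916 and 411 CPM in Cth+/+ (log2 fold change -3.02 ± 0.28, adjusted p = 2.3e-06). Lum, lumican, had 20.4, 29.6, 36.5 and 34.6 CPM in Cth-/-, against 347, 185, 340.4 and 144 CPM in Cth+/+ (log2 fold change -3.07 ± 0.28, adjusted p = 2.1e-06). Thbs2 (0.56 ± 0.35, adjusted p = 0.22), Thbs1 (-0.86 ± 0.36, adjusted p = 0.074), Thbs4 (-0.070) and Dcn, decorin (-0.51 ± 0.25, adjusted p = 0.12), were not called. Thbs2 was called higher within set A (1.47, adjusted p = 0.0074), while its value within set B was -0.69. Dcn was called lower without Cth+/+ replicate 11 (range 0.024 to 0.95 over 27 alternatives), and its value within set B was -0.71. Thbs1 was called lower without Cth+/+ replicate 7 or Cth-/- replicate 18 (range 0.016 to 0.51 over 27 alternatives).

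Matrix proteases and their inhibitors fell at 14 of 21 genes and rose at 2 (median -1.04). Adamts5, which cuts proteoglycans, had 81.1, 104, 104 and 72.4 CPM in Cth-/-, against 381, 450.5, 268 and 456 CPM in Cth+/+ (log2 fold change -2.11 ± 0.20, adjusted p = 2.3e-06). Mmp11, stromelysin 3, went the other way with 23.2, 26.5, 42.3 and 22.9 CPM in Cth-/-, against 4.83, 4.21, 5.56 and 2.70 CPM in Cth+/+ (log2 fold change 2.74 ± 0.28, adjusted p = 4.6e-06). The other rise was Timp4, an inhibitor expressed in fat (0.83, adjusted p = 0.037), while Timp1 had 0.298 to 0.560 CPM in Cth-/- and 1.25 to 5.11 CPM in Cth+/+ (-2.84 ± 0.58, adjusted p = 0.0013). Of 21 genes of TGF-beta and fibrosis signalling 4 rose and 10 fell (median -0.50); within set B 2 rose and 7 fell. Tgfb1, the ligand, fell by 1.05 on the log2 scale (adjusted p = 3.8e-05), and the activin subunit Inhbb had 15.2, 7.33, 14.9 and 12.1 CPM in Cth-/-, against 29.8, 45.7, 34.1 and 35.6 CPM in Cth+/+ (log2 fold change -1.55 ± 0.23, adjusted p = 0.00012).

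Fibroblast and progenitor markers moved in the same direction as the matrix genes: 16 of 19 fell and 1 rose (median -1.27). Their summed level was 1635, 1773, 2167 and 2099.9 CPM in Cth-/- libraries, against 5109.7, 3000.3, 4793 and 2303 CPM in Cth+/+ libraries. Pi16, a marker of stem-like fibroblasts, had 42.1, 33.4, 53.5 and 32.8 CPM in Cth-/-, against 362, 201, 312 and 133 CPM in Cth+/+ (log2 fold change -2.64 ± 0.31, adjusted p = 1.8e-05). Pdgfra, the receptor common to adipose progenitors, fell by 0.61 on the log2 scale (adjusted p = 0.023), and Zfp423 was not called (-0.14 ± 0.15, adjusted p = 0.48). F3, tissue factor, was the rise (0.99, adjusted p = 0.00053). The markers' falls ranged from -0.55 for Pdgfrb to -3.07 for Lum, beside -4.98 for Col3a1. Lum is counted among the matrix glycoproteins and proteoglycans above as well. The part of fibroblast number in the matrix result was not tested. Endothelial markers were mostly not called (1 of 17 higher, 3 lower, median -0.13; 0 higher and 2 lower with replicates 16 and 20 left out), with Pecam1 at -0.081 ± 0.13, adjusted p = 0.67 and Cdh5 at -0.13 ± 0.15, adjusted p = 0.54.

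Interferon response genes fell at 26 of 30 members and rose at 0, with a median of -1.40; within set A 23 fell and within set B 24. Promoter windows of 4 members are shown because they hold the pattern of interferon-stimulated response elements searched here, 2 copies of GAAA with any 2 bases between them; capitals mark all matches on either strand in the 250 bases before the RefSeq start (GRCm38.p6, 5′ to 3′ on the strand of the gene): Ifit1 (chr19:34640639-34640888, plus strand), Isg15 (chr4:156200819-156201068, minus strand), Oas3 (chr5:120777660-120777909, minus strand) and Cxcl10 (chr5:92348890-92349139, minus strand).
Ifit1: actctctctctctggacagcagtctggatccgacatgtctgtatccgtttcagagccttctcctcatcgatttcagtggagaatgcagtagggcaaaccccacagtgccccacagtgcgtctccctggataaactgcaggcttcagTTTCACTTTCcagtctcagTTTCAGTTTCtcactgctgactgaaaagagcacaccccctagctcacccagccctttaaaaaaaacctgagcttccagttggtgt
Isg15: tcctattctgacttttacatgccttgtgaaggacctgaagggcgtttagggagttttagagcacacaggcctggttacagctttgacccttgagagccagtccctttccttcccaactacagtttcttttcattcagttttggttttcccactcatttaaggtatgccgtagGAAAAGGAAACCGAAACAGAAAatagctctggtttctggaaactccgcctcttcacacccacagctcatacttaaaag
Oas3: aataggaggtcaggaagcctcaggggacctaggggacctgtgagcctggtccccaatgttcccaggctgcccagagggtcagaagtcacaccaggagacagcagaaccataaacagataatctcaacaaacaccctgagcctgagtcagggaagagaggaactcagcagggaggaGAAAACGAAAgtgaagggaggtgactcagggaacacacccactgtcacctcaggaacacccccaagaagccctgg
Cxcl10: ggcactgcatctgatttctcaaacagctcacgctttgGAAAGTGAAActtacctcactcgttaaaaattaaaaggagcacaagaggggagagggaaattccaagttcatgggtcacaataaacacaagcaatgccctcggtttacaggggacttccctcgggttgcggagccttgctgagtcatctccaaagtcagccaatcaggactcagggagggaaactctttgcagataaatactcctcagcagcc
Overlapping matches are merged in the capitals of Isg15. The pattern, searched on both strands, was in a window of 936 of all 27025 genes with one (3.46%) and in 13 of the 21 list genes with a window (61.9%). Of those 13, 11 fell and 2 were not called, and of the 8 without them 7 fell.

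Ifit1, which binds foreign RNA caps, had 7.03, 13.4, 7.81 and 9.63 CPM in Cth-/-, against 33.1, 72.5, 48.7 and 35.8 CPM in Cth+/+ (log2 fold change -2.33 ± 0.25, adjusted p = 7.5e-06). Isg15, a ubiquitin-like modifier, had 2.07, 3.69, 1.84 and 1.15 CPM in Cth-/-, against 6.18, 18.0, 10.3 and 10.2 CPM in Cth+/+ (log2 fold change -2.33 ± 0.38, adjusted p = 0.00022). Oas3, a sensor of double-stranded RNA, had 2.37, 4.21, 2.18 and 2.92 CPM in Cth-/-, against 13.0, 11.4, 23.6 and 5.92 CPM in Cth+/+ (log2 fold change -2.20 ± 0.40, adjusted p = 0.00055). Every Cth-/- library lay below every Cth+/+ library in each. Among the members not called were Ifih1 (-0.34 ± 0.14, adjusted p = 0.066), Rsad2 (-0.51 ± 0.21, adjusted p = 0.066) and Igtp (-0.46, adjusted p = 0.1). Ifih1 and Rsad2 passed without Cth+/+ replicate 11, and Rsad2 also without Cth+/+ replicate 7 (ranges 0.011 to 0.3 over 27 alternatives for Ifih1 and 0.012 to 0.45 over 27 alternatives for Rsad2). The summed level of the list was 552, 794, 715 and 724 CPM in Cth-/- libraries, against 1310.3, 1668, 1599 and 1018 CPM in Cth+/+ libraries, so the groups did not overlap.

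Macrophage markers were lower by a similar median (-1.40; 15 of 22 fell and 1 rose), but this count depended on the libraries: within set A 4 fell and 0 rose, within set B 17 fell and 0 rose, and with replicates 16 and 20 left out 3 fell and 1 rose. Adgre1, the F4/80 antigen, had 18.1, 30.7, 29.6 and 17.8 CPM in Cth-/-, against 115, 60.8, 123 and 39.6 CPM in Cth+/+ (log2 fold change -1.81 ± 0.45, adjusted p = 0.005). Within set A Adgre1 had -0.92, adjusted p = 0.09 (range 0.00011 to 0.09 over 27 alternatives). Folr2, of resident macrophages, had 16.2, 22.0, 23.8 and 16.3 CPM in Cth-/-, against 125, 70.3, 111 and 42.6 CPM in Cth+/+ (log2 fold change -2.15 ± 0.33, adjusted p = 0.00015). The high values of both lay in Cth+/+ replicates 7 and 10, with replicate 11 closest to the Cth-/- libraries. The macrophage markers without Lpl, which adipocytes make, summed to 946, 1409, 1606 and 1237 CPM in Cth-/- libraries, against 4277, 2159, 4043 and 1449.7 CPM in Cth+/+ libraries. The macrophages' part in the interferon result was not tested.

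Chemokine genes fell at 11 of 20 tested members and rose at 1. Within set A 6 fell, as with replicates 16 and 20 left out. Cxcl10 is counted here and among the interferon response genes. Ccl8, a monocyte attractant, had 1.38, 3.02, 7.29 and 1.83 CPM in Cth-/-, against 117, 29.2, 74.5 and 16.7 CPM in Cth+/+ (log2 fold change -4.08 ± 0.75, adjusted p = 0.00064). Cxcl10, the interferon-induced chemokine, had 0.302, 0.298, 0.841 and 0.678 CPM in Cth-/-, against 3.17, 3.78, 3.88 and 1.56 CPM in Cth+/+ (log2 fold change -2.54 ± 0.46, adjusted p = 0.0005). Cxcl13, the B cell attractant, was the rise, with 68.9, 145, 149 and 142 CPM in Cth-/-, against 57.7, 7.93, 44.6 and 11.8 CPM in Cth+/+ (log2 fold change 2.05 ± 0.57, adjusted p = 0.011). Within set B Cxcl13 had 1.43, adjusted p = 0.12 (range 0.0026 to 0.12 over 27 alternatives). Of the antigen presentation genes 8 of 16 fell and 0 rose, the falls being the 7 class II genes of the list and Tapbp, which loads class I (-0.38). Cd74, the class II invariant chain, had 94.1, 142, 142 and 132 CPM in Cth-/-, against 492, 530.1, 557 and 299 CPM in Cth+/+ (log2 fold change -1.88 ± 0.19, adjusted p = 5.2e-06). Ciita, the class II transactivator, had 1.90, 3.13, 3.05 and 2.51 CPM in Cth-/-, against 14.1, 10.2, 15.2 and 5.47 CPM in Cth+/+ (log2 fold change -2.07 ± 0.31, adjusted p = 0.00011). H2-K1 (-0.25 ± 0.17, adjusted p = 0.26), H2-D1 (-0.20 ± 0.17, adjusted p = 0.37) and B2m (-0.57 ± 0.27, adjusted p = 0.11) of class I were not called over both sets. Within set B the values were -0.71 for H2-K1 and -0.79 for H2-D1. B2m passed in 5 of 27 alternatives, among them without Cth-/- replicate 20 (-0.99, adjusted p = 0.0015, range 0.0015 to 0.93 over 27 alternatives).

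Calls of lymphocyte genes were few and uneven. The summed B cell markers stood at 47.4 to 110 CPM in Cth-/- and 369 to 414 CPM in Cth+/+, with Ighm, given below, the largest part. The T cell sums overlapped, at 12.0 to 17.3 CPM in Cth-/- and 11.7 to 58.5 CPM in Cth+/+. Of 15 B cell genes 4 fell and 0 rose (median -2.70), 13 fell when the control diet library Cth-/- replicate 14 was left out, DESeq2 called 10, and 2 fell within set B, as with replicates 16 and 20 left out. Ighm, the immunoglobulin mu chain, had 105, 81.0, 37.6 and 61.8 CPM in Cth-/-, against 329.5, 367, 288 and 385 CPM in Cth+/+ (log2 fold change -2.26 ± 0.35, adjusted p = 0.00017). Pax5, the B cell transcription factor, had 0.388, 0.186, 0.654 and 0.610 CPM in Cth-/-, against 1.07, 0.661, 7.48 and 0.208 CPM in Cth+/+. Pax5 was not called (-2.35 ± 1.19, adjusted p = 0.14). Of 15 tested T cell genes 3 fell and 0 rose, with 1 lower within set A. The share that fell was near the 19.4% lower over all genes tested. Trac, the T cell receptor alpha constant chain, had 0.733, 0.707, 0.623 and 1.22 CPM in Cth-/-, against 2.69, 5.65, 5.47 and 5.64 CPM in Cth+/+ (log2 fold change -2.60 ± 0.37, adjusted p = 8.8e-05). Within set B Trac had -1.78, adjusted p = 0.13 (range 1e-10 to 0.13 over 27 alternatives). Cd3e was not called (0.24, adjusted p = 0.81).

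Cell division genes fell at 27 of 30 members and rose at 0, with a median of -2.27, and leaving out any of the 16 subcutaneous libraries left 27 lower. Mki67, the Ki-67 antigen of dividing cells, had 6.00, 1.12, 1.06 and 2.31 CPM in Cth-/-, against 54.0, 77.5, 38.2 and 42.4 CPM in Cth+/+ (log2 fold change -4.36 ± 0.50, adjusted p = 1.4e-05). Top2a, topoisomerase II of replicating cells, had 5.00, 0.707, 1.12 and 1.15 CPM in Cth-/-, against 25.9, 39.0, 16.8 and 24.2 CPM in Cth+/+ (log2 fold change -3.73 ± 0.53, adjusted p = 8.1e-05). The mitotic kinase Bub1 had 0.216, 0.0372, 0.0311 and 0.136 CPM in Cth-/-, against 2.57, 3.90, 1.23 and 1.76 CPM in Cth+/+ (log2 fold change -4.56 ± 0.62, adjusted p = 5.8e-05). The groups were far apart in all 3, and replicate 16 was the highest Cth-/- library. Genes of DNA replication were mixed: Mcm2 fell by 1.56 and Mcm6 by 0.80 on the log2 scale, and Mcm4 (-0.18 ± 0.10, adjusted p = 0.15), Mcm7 (0.36 ± 0.14, adjusted p = 0.058) and Pcna (-0.24 ± 0.12, adjusted p = 0.15) were not called. Mcm7 passed upward without Cth+/+ replicate 8 or Cth-/- replicate 20 (range 0.01 to 0.38 over 27 alternatives).

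The core clock and its output genes were shifted, with 14 of 20 higher and 4 lower (median 1.21). Dbp, an output transcription factor, had 60.2, 83.2, 62.8 and 83.3 CPM in Cth-/-, against 15.6, 14.4, 11.3 and 14.3 CPM in Cth+/+ (log2 fold change 2.38 ± 0.17, adjusted p = 2.6e-07). Arntl, which encodes the core activator BMAL1, had 7.12, 5.70, 4.27 and 4.88 CPM in Cth-/-, against 21.9, 20.5, 22.5 and 17.5 CPM in Cth+/+ (log2 fold change -1.91 ± 0.18, adjusted p = 2.2e-06). The 2 arms thus moved in opposite directions, each without overlap. Ciart, a repressor of the clock, had 3.06, 6.07, 3.86 and 5.63 CPM in Cth-/-, against 0.436, 0.691, 0.817 and 0.865 CPM in Cth+/+ (log2 fold change 2.72 ± 0.49, adjusted p = 0.00054), and the repressors Per2 and Nr1d1 differed by 1.20 ± 0.27, adjusted p = 0.0027 and 1.23 ± 0.20, adjusted p = 0.00026. Within set B Per2 had 1.25, adjusted p = 0.089 (range 0.0001 to 0.089 over 27 alternatives). The sources used here do not give the time of day of tissue collection.

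Genes of the glucocorticoid and fasting response rose at 10 of 22 members and fell at 2 (median 0.58); with replicates 16 and 20 left out 5 rose and 1 fell. Fkbp5, a chaperone gene induced by glucocorticoids, had 203, 369.5, 421 and 299 CPM in Cth-/-, against 63.5, 99.4, 105 and 166 CPM in Cth+/+ (log2 fold change 1.58 ± 0.32, adjusted p = 0.0013). The metallothionein Mt2 had 31.1, 58.9, 56.8 and 57.8 CPM in Cth-/-, against 12.0, 10.4, 15.0 and 15.5 CPM in Cth+/+ (log2 fold change 1.95 ± 0.36, adjusted p = 0.0007). Pdk4, which shuts pyruvate dehydrogenase in fasting, had 434, 177, 259 and 704 CPM in Cth-/-, against 53.2, 81.6, 166 and 109.6 CPM in Cth+/+ (log2 fold change 1.94 ± 0.50, adjusted p = 0.0069). With replicates 16 and 20 left out Pdk4 had 1.09, adjusted p = 0.14 (range 0.0027 to 0.14 over 27 alternatives). Of 23 genes of insulin signalling and glucose uptake 10 rose and 2 fell (median 0.46). Igfbp3, which binds insulin-like growth factors, had 171, 177, 237 and 245 CPM in Cth-/-, against 27.9, 39.1, 27.9 and 43.1 CPM in Cth+/+ (log2 fold change 2.59 ± 0.22, adjusted p = 1.1e-06). Irs2, an insulin receptor substrate, had 93.0, 84.1, 181 and 217 CPM in Cth-/-, against 32.8, 33.1, 76.9 and 30.2 CPM in Cth+/+ (log2 fold change 1.74 ± 0.41, adjusted p = 0.0039), while the glucose transporter gene Slc2a4 was not called (0.27, adjusted p = 0.39). Growth hormone and STAT5 targets split, 4 of 13 higher and 5 lower (3 and 2 within set B), with Cish, a STAT5-induced inhibitor, at 21.9, 10.6, 11.4 and 57.7 CPM in Cth-/-, against 4.52, 4.21, 5.11 and 2.11 CPM in Cth+/+ (log2 fold change 2.66 ± 0.55, adjusted p = 0.0015).

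Xenobiotic metabolism genes rose at 11 of 20 tested members and fell at 2 (median 0.70). Cyp2b10, a cytochrome P450 known as a target of the nuclear receptor CAR in liver, had 33.6, 44.5, 5.60 and 53.8 CPM in Cth-/-, against 0.515, 0.811, 0.409 and 1.66 CPM in Cth+/+ (log2 fold change 5.31 ± 0.60, adjusted p = 1.3e-05). Cyp2e1, another P450, had 2441, 3711, 5208 and 5471 CPM in Cth-/-, against 555, 484, 975 and 441 CPM in Cth+/+ (log2 fold change 2.78 ± 0.32, adjusted p = 1.5e-05). Both were higher in every Cth-/- library, with replicate 18 the lowest for Cyp2b10 and replicate 16 for Cyp2e1. Nr1i2 and Nr1i3, the genes of the receptors PXR and CAR, did not pass the low-count filter. Ephx1, an epoxide hydrolase, was not called (0.069 ± 0.17, adjusted p = 0.79).

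By the rule for the largest changes (mean of at least 5 CPM, no overlap), the 10 largest rises were Ucp1, Slc27a2, Fabp3, Cyp2b10, Acsm3, Elovl3, Cpt1b, Dio2, Aspg and Kng2, from 6.98 to 3.66. Acsm3, a medium-chain acyl-CoA synthetase, had 156, 259, 227 and 464 CPM in Cth-/-, against 8.24, 6.58, 15.3 and 8.20 CPM in Cth+/+ (log2 fold change 4.86 ± 0.40, adjusted p = 7.1e-07). Aspg, an asparaginase, had 59.8, 47.5, 10.2 and 30.7 CPM in Cth-/-, against 2.50, 1.23, 2.61 and 3.43 CPM in Cth+/+ (log2 fold change 3.93 ± 0.52, adjusted p = 4.3e-05). Kng2, a kininogen, had 11.4, 9.08, 1.71 and 19.5 CPM in Cth-/-, against 0.356, 1.23, 0.490 and 1.14 CPM in Cth+/+ (log2 fold change 3.66 ± 0.65, adjusted p = 0.00046). All 3 were low but present in Cth+/+ fat. The 10 largest falls were Prnd, Col3a1, Plppr4, Col1a1, Mki67, Ccl8, Tuba1a, Col1a2, Prc1 and Top2a, from -5.64 to -3.73. Prnd, which encodes the prion-like protein doppel, had 0.302, 0.298, 0.0934 and 0.407 CPM in Cth-/-, against 1.94, 33.6, 2.49 and 13.5 CPM in Cth+/+ (log2 fold change -5.64 ± 1.02, adjusted p = 0.00053). Within set B Prnd had -2.47, adjusted p = 0.18 (range 3.7e-09 to 0.18 over 27 alternatives), and Plppr4 -2.67, adjusted p = 0.056 (range 1.8e-08 to 0.056 over 27 alternatives). Tuba1a, an alpha-tubulin, had 61.7, 79.0, 82.8 and 99.8 CPM in Cth-/-, against 514, 1714, 325 and 2204 CPM in Cth+/+ (log2 fold change -3.88 ± 0.57, adjusted p = 0.00011). As for Scd2, Lep and Npr3, the clearance receptor of natriuretic peptides (111, 46.0, 109 and 47.3 CPM in Cth-/-, against 344, 1224, 308 and 1657 CPM in Cth+/+; log2 fold change -3.50 ± 0.56, adjusted p = 0.00022), Cth+/+ replicates 8 and 11 carried the highest values of the group, while Col3a1, Col1a1 and Col1a2 were highest in replicates 7 and 10.

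**Figure D3:**
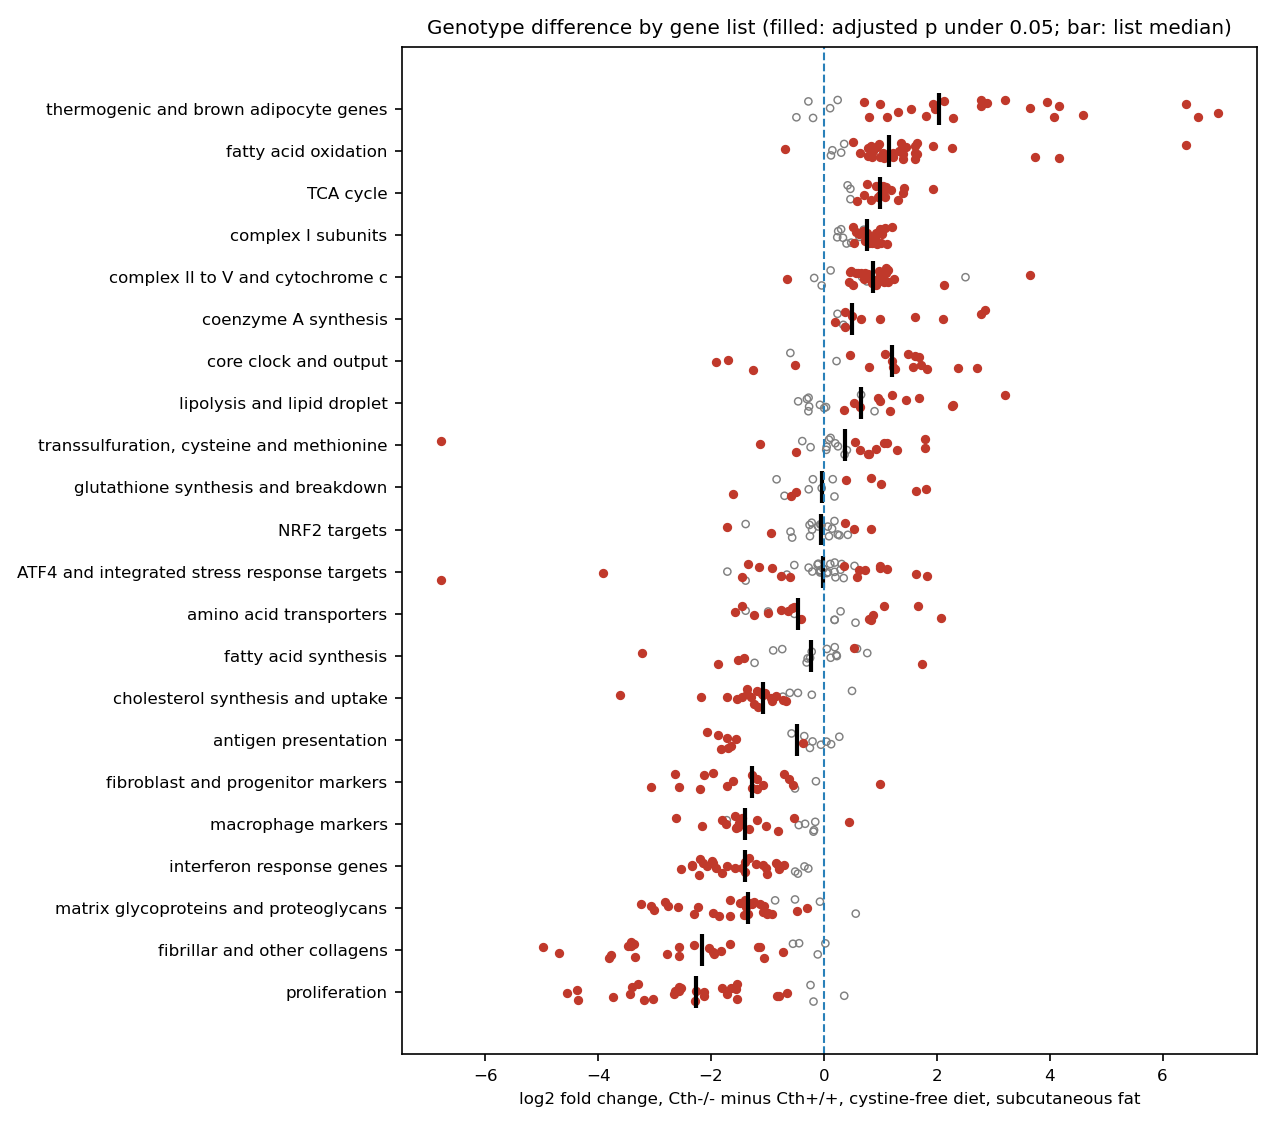
Log2 fold changes of Cth-/- over Cth+/+ on the cystine-free diet in subcutaneous fat for the members of 22 gene lists, 1 point a gene (filled where called), with a bar at each list's median and a dashed line at the median of all genes tested (0.01). Thermogenic genes (median 2.05) lie to the right of the line, and collagens (-2.16) and cell division genes (-2.27) to the left.

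On the control diet the same genotypes of subcutaneous fat differed at 17 of 16555 genes (0.103%), 7 higher (0.0423%) and 10 lower (0.0604%) in Cth-/-, by the same test (1825 at an unadjusted p under 0.05). DESeq2 called 112, and 1411 were called within set A and 2 within set B. In Cth+/+ mice the diet itself gave 11 genes (0.0664%), 9 higher (0.0544%) and 2 lower (0.0121%) on CysF, beside 2310 at an unadjusted p under 0.05. The count was 0 to 199 when single libraries were left out, 0 among others without Cth-/- CysF replicate 18 and 199 without Cth+/+ CysF replicate 11. The test of the difference between the genotype effects on the 2 diets passed for 3600 genes (21.7%), 1554 with a higher log2 fold change on the cystine-free diet (9.39%) and 2046 with a lower one (12.4%). The count was 2122 within set A and 2339 with replicates 16 and 20 left out.

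Ucp1 had 62.1, 169, 36.9 and 130.5 CPM in Cth-/- CTRL libraries, against 26.5, 8.78, 1.92 and 67.6 CPM in Cth+/+ CTRL libraries (log2 fold change 1.93 ± 0.98, adjusted p = 0.47), and its genotype effect on the cystine-free diet exceeded that on the control diet by 5.05 ± 1.43, adjusted p = 0.02. The libraries of the control diet overlapped. Acsm3 and Cish also stood among the 5 largest differences upward, by 4.63 ± 0.50, adjusted p = 6.3e-05 and 3.97 ± 0.77, adjusted p = 0.0027. Of the thermogenic list 20 of 28 genes passed the test of the difference upward and 0 downward, of complex I 31 and 0, of fatty acid oxidation 27 and 1. Col3a1 had 3279.6, 6581, 2541 and 3464 CPM in Cth-/- CTRL libraries, against 3612, 3979.8, 2552 and 2878 CPM in Cth+/+ CTRL libraries (0.28 ± 0.28, adjusted p = 0.68; difference -5.26 ± 0.42, adjusted p = 5.2e-06), and 18 of 26 collagens passed downward and 0 upward. Slfn4, an interferon-induced gene of myeloid cells, and Cpz, a carboxypeptidase of the matrix, were among the 5 largest downward, by -5.18 ± 1.13, adjusted p = 0.0053 and -4.62 ± 0.67, adjusted p = 0.00043. Interferon response genes passed downward at 27 of 30, fibroblast markers at 16 of 19 and macrophage markers at 15 of 22. Asns, which had 49.3, 48.8, 49.5 and 45.7 CPM in Cth-/- CTRL libraries, against 48.9, 63.6, 47.6 and 55.1 CPM in Cth+/+ CTRL libraries (-0.16 ± 0.13, adjusted p = 0.63), passed with a difference of 1.16 ± 0.19, adjusted p = 0.00081. Cholesterol synthesis fell on the cystine-free diet, but only 1 of 24 genes passed the test of the difference, beside a median of -0.70 and 0 calls on the control diet.

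Clock genes also differed on the control diet, with 5 of 20 higher and 3 lower. Dbp had 59.8, 39.4, 64.5 and 40.5 CPM in Cth-/- CTRL libraries, against 8.97, 9.67, 9.76 and 8.90 CPM in Cth+/+ CTRL libraries (2.45 ± 0.17, adjusted p = 2.8e-06), and the difference between the diets was -0.070 ± 0.23, adjusted p = 0.87. Arntl differed by -1.30 ± 0.17, adjusted p = 0.0025 on the control diet, with a difference between the diets of -0.61 ± 0.24, adjusted p = 0.085. Of the whole list 3 genes passed the test of the difference upward and 1 downward. Besides Cth, the members of the other lists called on the control diet were Osgin1 (-1.53 ± 0.18, adjusted p = 0.00076) and Slc5a6 (0.96 ± 0.14, adjusted p = 0.0062).

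**Figure D4:**
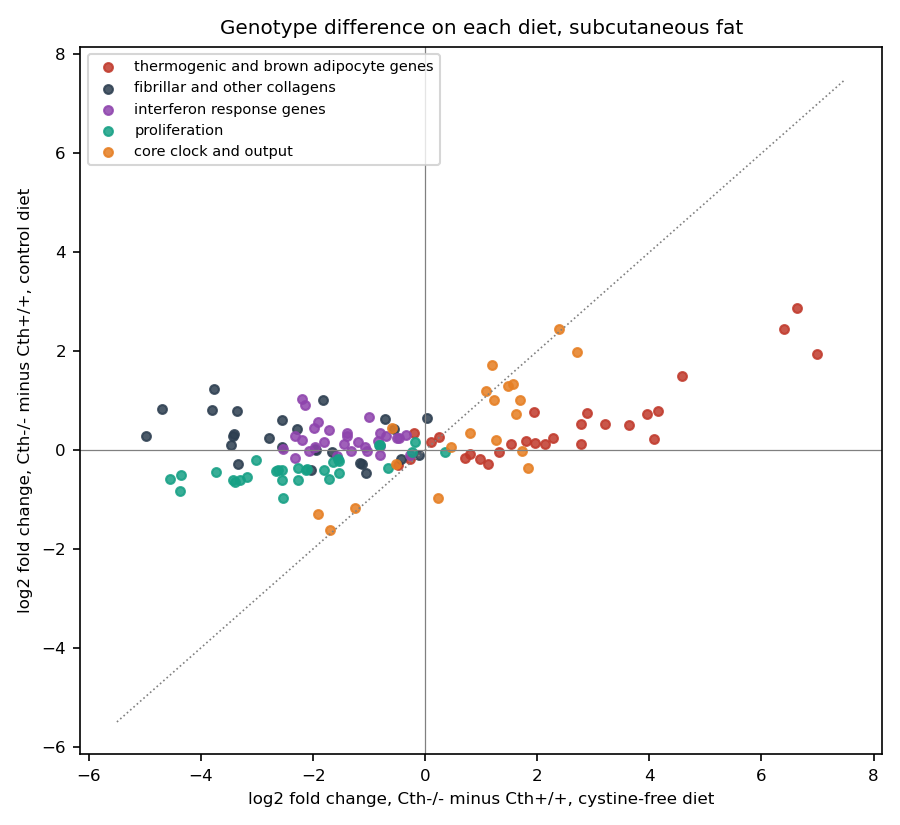
Log2 fold change of Cth-/- over Cth+/+ in subcutaneous fat on the cystine-free diet (horizontal) and on the control diet (vertical), 1 point a gene, for 5 gene lists, with a dotted line where both are equal. Thermogenic genes spread to 6.98 and collagens to -4.98 along the horizontal axis, while their medians on the vertical axis are 0.24 and 0.26; clock genes spread along both axes.

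The same genotype comparison on the cystine-free diet was set beside the other depots. In BAT 4589 of 14528 genes (31.6%) were called, 14.5% higher and 17.1% lower. In EFAT 6841 of 17248 (39.7%) were called, 20.1% higher and 19.6% lower. All EFAT Cth+/+ CysF libraries fell in library set A, while EFAT Cth-/- CysF replicates 17, 18 and 20 fell in set B and replicate 16 in set A. Genotype and library set thus largely coincided in EFAT and cannot be told apart there. With the set as a term the EFAT count was 3613. Tested in a fit of all 48 libraries, the SFAT effect differed from the BAT effect at 1719 of 18348 genes (9.37%), 1092 higher (5.95%) and 627 lower (3.42%) in SFAT. It differed from the EFAT effect at 2247 genes (12.2%), 1403 higher (7.65%) and 844 lower (4.6%) in SFAT. The count against EFAT was 1257 without SFAT Cth+/+ replicate 10, 3569 without SFAT Cth+/+ replicate 11 and 1400.0 when the fit included the library set. With replicate number as a block, 2531 genes differed from BAT and 3797 from EFAT. Of 29 thermogenic genes 15 had a higher log2 fold change in SFAT than in BAT and 0 a lower one, and 19 had a higher one than in EFAT and 1 a lower one. For complex I, 21 of 37 subunits were higher against BAT and 35 against EFAT, and 0 were lower against either.

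Scaled over all 48 libraries, Ucp1 averaged 645 ± 403 CPM in Cth-/- and 5.26 ± 7.20 CPM in Cth+/+ in SFAT and 8318 ± 1509 CPM in Cth-/- and 3989.8 ± 699.7 CPM in Cth+/+ in BAT (SD, n = 4 each). Its log2 fold change in BAT was 1.07 ± 0.22, adjusted p = 0.0018, the SFAT effect exceeded it by 5.90 ± 1.72, adjusted p = 0.022, and EFAT did not pass the low-count filter. Cidea changed by 3.21 in SFAT, 0.035 in BAT and -3.02 in EFAT, with a difference between SFAT and EFAT of 6.31 ± 0.91, adjusted p = 1.7e-05. Elovl3 changed by 4.58, 0.27 and -7.70 in SFAT, BAT and EFAT, with a difference between SFAT and EFAT of 12.27 ± 1.64, adjusted p = 6.8e-06. Cidea and Elovl3 thus rose in SFAT and had the opposite sign in EFAT. Other genes changed alike in sign: Cyp2b10 differed by 5.31 in SFAT and 5.32 in BAT, and Lep by -2.43, -4.52 and -3.25 in SFAT, BAT and EFAT. The immediate early genes Fosb and Fos had a lower log2 fold change in SFAT than in BAT, with Fosb at -3.57 in SFAT and 1.78 in BAT (difference -5.35 ± 1.30, adjusted p = 0.0057) and Fos at -1.85 and 2.47 (difference -4.32 ± 1.39, adjusted p = 0.041); for both genes the Cth-/- and Cth+/+ libraries of SFAT overlapped.

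Collagens fell in all depots, at 22 of 26 genes in SFAT, 17 of 23 in BAT and 17 of 26 in EFAT, and 4 of 26 had a lower log2 fold change in SFAT than in BAT and 12 a lower one than in EFAT. Col1a1 differed by -4.69 in SFAT, -3.82 in BAT and -2.06 in EFAT. Interferon response genes fell at 26 of 30 in SFAT, 28 of 29 in BAT and 9 of 30 in EFAT; 0 differed between SFAT and BAT, and 11 had a lower log2 fold change in SFAT than in EFAT. Fatty acid synthesis, with 2 of 20 higher and 4 lower in SFAT, had 0 higher and 11 lower in BAT and 3 higher and 14 lower in EFAT, and 9 genes had a higher log2 fold change in SFAT than in EFAT against 1 with a lower one. Fasn differed by 0.22 in SFAT, -0.15 in BAT and -2.26 in EFAT. Skeletal muscle genes fell in BAT at 20 of 20 and were 2 higher and 0 lower of 19 in SFAT, and 19 of 20 had a higher log2 fold change in SFAT than in BAT; their uneven levels between libraries of SFAT are given above.

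**Figure D5:**
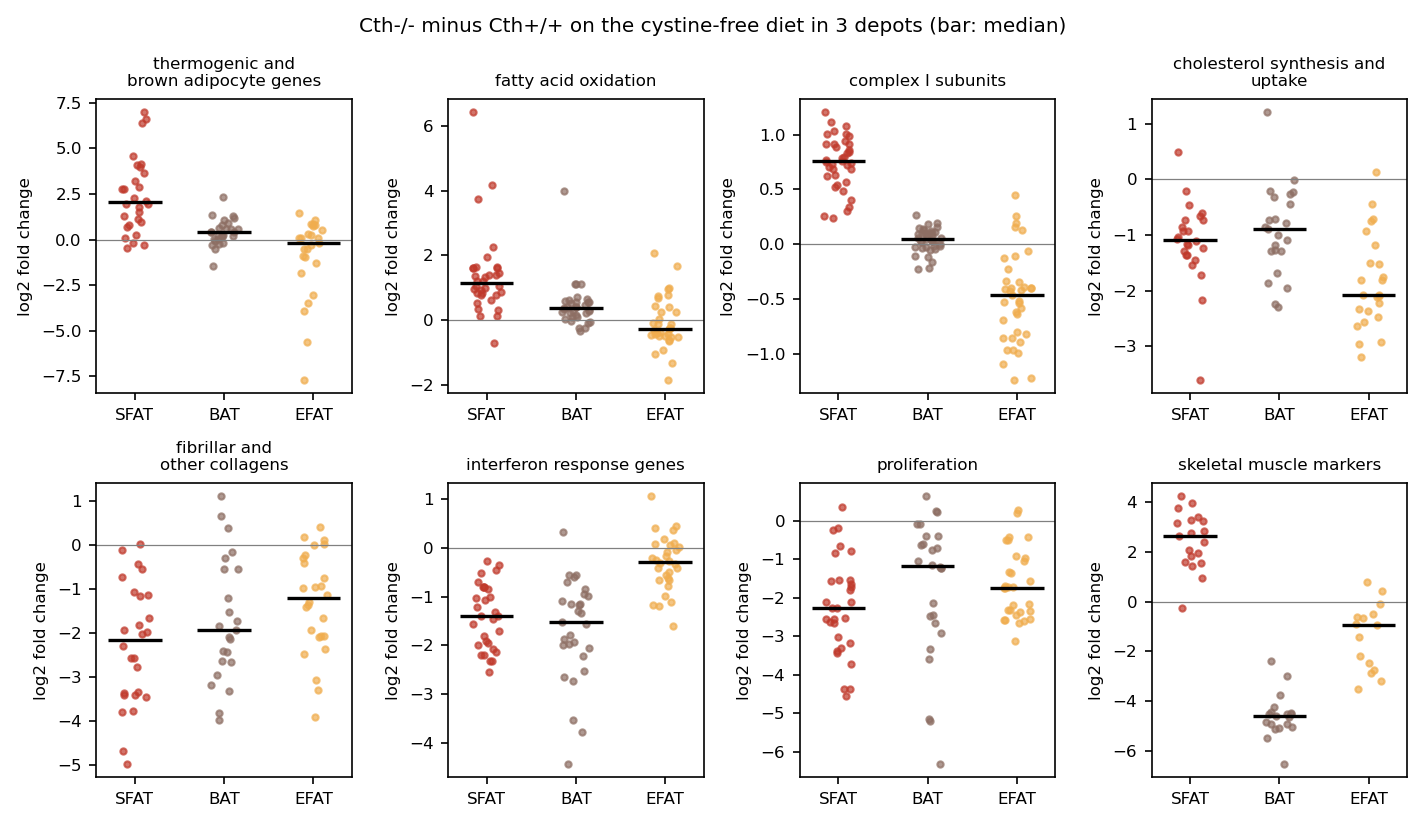
Log2 fold changes of Cth-/- over Cth+/+ on the cystine-free diet for 8 gene lists in SFAT, BAT and EFAT, 1 point a gene with a bar at the median of the list in that depot; each panel has its own vertical scale. The medians of complex I are 0.76 in SFAT, 0.049 in BAT and -0.46 in EFAT, and those of the collagens -2.16, -1.93 and -1.22.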

How the data were processed

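The authors deposited 1 table of expected counts for 47729 genes in 48 libraries, made with RSEM; STAR, FastQC, Picard and the mm10 build are named too, per the submitters' processing notes, with versions, annotation release and strandedness not given in the sources used here. Of the non-zero values in the 8 libraries 14.0 to 16.9% were not whole (tolerance 1e-9), and expected counts were rounded to whole numbers. Gene IDs matched GENCODE M21 for 47224 genes, 27 symbols had been turned into dates, 128 symbols stood on more than 1 line, and 0 sample columns were left unused. Library totals were 16245832 to 39001462 counts in SFAT, 22067580 to 46031118 in BAT and 18711900 to 36110293 in EFAT.

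edgeR 4.0.16 (limma 3.58.1, R 4.3.3) fitted all 16 SFAT libraries as 4 groups after filterByExpr (minimum count 10, minimum total 15) and TMM scaling, with contrasts for genotype on each diet, diet in Cth+/+ and their interaction; BAT and EFAT were fitted alone, and depot differences in a fit of all 48 libraries. DESeq2 1.42.0 was an alternative. SE was the absolute log2 fold change divided by the square root of F. CPM came from the TMM-scaled SFAT libraries, and where stated from all 48. The fits were tested on simulated data. Tables and figures used Python 3.11.15, pandas 2.3.3 and matplotlib 3.10.9.

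Named genes were Cth and a key list, up to 4 called members of each of 47 lists by size of change (mean at least 1 CPM) with up to 3 not called, the 10 largest rises and falls (mean at least 5 CPM, no overlap, predicted genes and pseudogenes left out), and the largest differences between diets and depots. Members that a list's count or range called for were named too, and Tbx15, Wt1, Zic1, Fabp4, Cpt1a, Per2, Nr1d1, Irs2, Hspa5, Aldh18a1, Psat1 and Slc7a5 were named after their values were seen. The comparison and the lists were chosen with earlier results of these data known. Symbols are spelled as in the deposited table (Sqrdl, Atpif1). Promoter windows came from RefSeq tables (GRCm38.p6). Some genes that the rule names are not reported here.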

Additional observations from a re-analysis of the deposited data

Results flagged for a closer look

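Checks of a summed level or share in groups of 4 libraries numbered 96. In 6 of them a library lay farther from the others than Dixon's limit for 4 samples. Chance gives about 1 in 20 groups, so 6 flags lie near the number that chance gives. The mitochondrial share and sum flagged here measure the same thing. Cth-/- replicate 20 had 31.3% of its counts from mitochondrially encoded genes, against 10.6 to 11.5% in the other Cth-/- CysF libraries, and their sum there was 470856 CPM, against 101133 to 117230.0 CPM. Cth-/- replicate 17 had the highest cholesterol synthesis sum of its group, 1498 CPM, beside 1094 to 1151 CPM. Cth-/- replicate 18 had the lowest iron-sulfur assembly sum, 1208 CPM, beside 1618 to 1697 CPM. Among Cth+/+ CysF libraries, replicate 10 stood apart in the epithelial sum, at 52.9 CPM beside 4.15 to 6.07 CPM, and replicate 11 in the amino acid transporter sum, at 2256 CPM beside 1905 to 1927 CPM.

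Genotype effects that differed by a test of the difference were 3600 genes between the diets, 1719 between SFAT and BAT and 2247 between SFAT and EFAT. The SFAT log2 fold change exceeded that in EFAT by 12.27 for Elovl3, 8.07 for Dio2, 6.31 for Cidea and 6.07 for Cpt1b. It was below that in BAT by a difference of -2.92 for Cxcl14, a chemokine (-1.80 in SFAT and 1.12 in BAT); within SFAT set B its value was -0.36, adjusted p = 0.37. The largest differences above BAT were muscle genes, Lmod2 at 9.93, Mylk4 at 9.30, Myot at 8.95 and Tcap at 8.92. In BAT the skeletal muscle list fell at 20 of 20 genes with a median of -4.63, beside a median of 2.62 in SFAT. The skeletal muscle sums of SFAT libraries ran from 53.3 to 2069 CPM in Cth-/- and from 71.4 to 265 CPM in Cth+/+. With replicates 16 and 20 left out the SFAT values of Lmod2, Mylk4, Myot and Tcap were -0.027, 1.94, 1.03 and 1.36, with 0 of the 4 called. The part of these muscle amounts in the differences was not tested.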

How the results depend on the processing

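The count of genes that differed by genotype in SFAT on the cystine-free diet (6213) was 6198 with RLE scaling, 5504 with no filter, 5916 with at least 1 CPM in 4 libraries, 6213 with robust dispersion, 6657 with DESeq2, 4827 with the 2 groups alone, 6787 with the library set as a term, 5928 without replicates 14 and 20, and 5311 to 6436 with 1 library left out. The median over all genes was 0.01 with TMM, 0.0020 with RLE and 0.0023 with DESeq2. The difference between the diets was 2122 genes within set A, 2339 without replicates 16 and 20, and 2649 (without Cth-/- CTRL replicate 13) to 4293 (without Cth+/+ CysF replicate 11) with 1 library left out. The genotype count on the control diet (17) was 112 by DESeq2, 1411 within set A, 2 within set B and 11 to 18 with 1 library left out, lowest without Cth-/- replicate 14 or Cth+/+ replicate 1. The diet count in Cth+/+ (11) was 18 with RLE scaling, 7 with no filter, 36 with at least 1 CPM in 4 libraries, 441 by DESeq2, 64 with the set as a term, 1053 within set B, 6 without replicates 14 and 20, 5 without replicates 16 and 20, and 0 to 199 with 1 library left out. The EFAT count was 3613 with the set as a term and 5482 to 7414 with 1 library left out, and the BAT count 3871 to 4612. The difference from BAT was 1390.0 to 1907 genes with 1 library left out, and that from EFAT was 1400.0 with the set as a term and 1257 to 3569 with 1 library left out. The cause of these changes was not tested. Within-set fits hold fewer libraries, and the genotype count on the control diet was higher within set A (1411) than in the main fit (17).

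Replicate numbers recur across depots. Deviations of same-numbered SFAT and BAT libraries correlated at -0.11 to 0.34, and those of SFAT and EFAT libraries at -0.069 to 0.49. The labels do not say whether a number marks the same mouse, and the main fit did not pair samples by number. Of the 16 SFAT libraries 9 correlated best with their own number among the 4 BAT libraries of the same genotype and diet, and 9 among those of EFAT. Both lie above the share that an even draw among 4 libraries would give. With the replicate block 2531 genes differed between SFAT and BAT and 3797 between SFAT and EFAT. A change of direction was counted only where the main fit or the alternative called the gene. Among 345 named genes it was found within set B for Ftl1 (-0.80), Thbs2 (-0.69) and Rgs5 (0.086). It was also found for Lmod2 (-0.027) without replicates 16 and 20. Leaving out these replicates was chosen after the data were seen, as were the alternatives for BAT, EFAT and diet. Genes not called could change sign too. Over 27 alternatives Csn3 ran from -7.26 to 5.27 and Krt19 from -2.74 to 2.06. Within set B, 1 Cth-/- library is assumed to vary like the other groups. Genes at a few reads, such as Cth in Cth-/- libraries, have folds that depth limits.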

Other observations

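Markers of the vessel wall, nerve and granulocytes, which belong to no comparison above, were mostly not called in subcutaneous fat on the cystine-free diet; over all genes tested 18.1% were higher and 19.4% lower. Of 10 smooth muscle and pericyte genes 1 rose and 3 fell, and 1 fell with the 2 groups alone. Notch3, a pericyte receptor, differed by -0.56 ± 0.14, adjusted p = 0.0062, Acta2, smooth muscle actin, by -0.54 ± 0.19, adjusted p = 0.034, and Rgs5 by -0.56 ± 0.21, adjusted p = 0.045. Within library set B Acta2 differed by -0.11, adjusted p = 0.63, and Rgs5 by 0.086, adjusted p = 0.86. Des, desmin, which skeletal muscle shares, rose by 1.52 ± 0.43, adjusted p = 0.012; without Cth-/- replicate 20 its value was 0.82, adjusted p = 0.062. Among 17 endothelial genes Aplnr, the apelin receptor, had 9.40, 8.60, 13.4 and 8.00 CPM in Cth-/-, against 34.6, 63.6, 32.1 and 26.6 CPM in Cth+/+ (log2 fold change -1.99 ± 0.26, adjusted p = 3.8e-05). All 4 Cth-/- libraries lay below every Cth+/+ library, as they did for its ligand Apln. Of 12 tested neutrophil and mast cell genes 3 fell and 1 rose. S100a8, a calcium-binding protein of neutrophils, differed by -1.70 ± 0.48, adjusted p = 0.011, Mcpt4, a mast cell protease, by -1.39 ± 0.40, adjusted p = 0.013 and Kit by 0.50 ± 0.15, adjusted p = 0.014. Within set A 1 gene of this list was called, lower. Within set A Mcpt4 had -0.53, adjusted p = 0.31 and Kit 0.45, adjusted p = 0.12, and within set B S100a8 had -0.82, adjusted p = 0.35 and Kit 0.62, adjusted p = 0.061; the call of Kit also ended without Cth-/- replicate 17, and that of Mcpt4 with replicates 16 and 20 left out (-1.17, adjusted p = 0.11). Of 10 tested Schwann cell genes 2 fell and 1 rose, with Pmp22, a myelin protein, at -0.86 ± 0.14, adjusted p = 0.0002 and S100b at 1.00 ± 0.28, adjusted p = 0.012. Within set A S100b had 0.91, adjusted p = 0.16, and with replicates 16 and 20 left out 0.48, adjusted p = 0.25, when 1 gene of the list was called, lower.

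Of the 10 tested genes of creatine and calcium cycling 0 rose and 2 fell, both of creatine synthesis. The share that fell was near the 19.4% lower over all genes tested. DESeq2 called 2 genes of the list higher and 3 lower. Gamt had 5.61, 4.28, 3.58 and 2.71 CPM in Cth-/-, against 12.6, 22.8, 11.2 and 27.5 CPM in Cth+/+ (log2 fold change -2.19 ± 0.35, adjusted p = 0.0002), and Gatm differed by -0.69 ± 0.15, adjusted p = 0.0027. The creatine carrier Slc6a8 was not called (0.028 ± 0.18, adjusted p = 0.92). Of the 9 subcutaneous positional genes En1 (-0.85 ± 0.32, adjusted p = 0.047) and Irx3 (0.80 ± 0.29, adjusted p = 0.04) were called. Their libraries overlapped. The call of En1 was lost in 18 of 27 alternatives (range 0.015 to 0.68 over 27 alternatives). That of Irx3 was lost in 11 of 27 (range 0.0065 to 0.35 over 27 alternatives). Lrrn4, a mesothelial marker, had 3.19, 3.80, 3.86 and 7.12 CPM in Cth-/-, against 0.911, 0.871, 1.31 and 0.658 CPM in Cth+/+ (log2 fold change 2.25 ± 0.32, adjusted p = 7.8e-05), while Wt1, Upk3b and Msln did not pass the low-count filter. The 14 tested epithelial genes gave 0 calls by edgeR's quasi-likelihood test, beside a median of 1.40; 0 had an unadjusted p under 0.05 and DESeq2 called 0.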
